A study of Mus musculus with 6 samples.

Results

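The BCL2 family decides whether a cell keeps its mitochondria intact or dies by apoptosis, and 10 of its best known genes were followed here in mouse spleen. Members were all probe sets whose platform annotation gives exactly 1 symbol from the list Bcl2, Bcl2l1, Mcl1, Bcl2l11, Bax, Bak1, Bid, Bad, Bbc3 and Pmaip1. The rule found 29 probe sets of 9 genes, among 45037 probe sets on the array, and no listed probe set carried Bax, which is not analysed here. Expression was measured in whole spleens of adult female F1 animals from a pair of outcrosses. The first group, (AKR/J x FVB/NJ)F1, has 3 arrays and is called AKR F1; the second, (DBA/2J x FVB/NJ)F1, has 3 arrays and is called DBA F1. Both share the parent FVB/NJ and differ in the other parent. The labels name no treatment other than Avertin anaesthesia before death, and no exact age. The stated aim was to find baseline expression differences between the genotypes.

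Survival proteins of the family, among them the products of Bcl2, Bcl2l1 (Bcl-xL) and Mcl1, bind and restrain the effectors Bax and Bak1, which otherwise open pores in the outer mitochondrial membrane. Proteins that share only a BH3 segment with the rest, here the products of Bcl2l11 (Bim), Bid, Bad, Bbc3 (Puma) and Pmaip1 (Noxa), sense stress and either occupy the survival proteins or engage the effectors. In mice Bcl2l1 is needed for the survival of maturing red cell precursors, whereas Bcl2 maintains resting lymphocytes, and the mouse spleen holds both kinds of cell.

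Values are on a log2 scale, so a difference of 1 is a doubling of signal, and every difference is AKR F1 minus DBA F1. A probe set was called when its adjusted p in limma was below 0.05, with Benjamini-Hochberg adjustment over all 45037 probe sets. Levels of different probe sets depend on their probes and are not set against each other. The arrays carry no counts, so their number limits the precision. Across all probe sets 10.4% were called, 5.14% higher and 5.26% lower in AKR F1; of the called ones 49.4% were higher, or 61.9% after centring each array on its median. Exocrine pancreas genes set 1 array apart from the rest. They averaged 13.82, 13.82 and 13.88 in AKR F1, against 13.23, 13.64 and 6.13 in DBA F1, the last value belonging to replicate 3. Every other array, though labelled spleen, thus carried a strong pancreas signal. Array medians were 5.04 to 5.10 and array maxima 14.37 to 14.56. The member values of those arrays come from the same samples. The spleens also differed in cell markers: erythroid genes averaged 8.57, 8.70 and 8.05 in AKR F1, against 9.78, 10.41 and 10.53 in DBA F1. T cell genes averaged 8.54, 8.45 and 8.51 in AKR F1, against 7.96, 8.02 and 7.99 in DBA F1. In bulk tissue, fewer cells of a type and less RNA per cell cannot be told apart. The labels number the spleens of each cross without saying that each came from its own animal, so p-values measure only the spread between these samples.

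Bcl2l1 was lower in AKR F1 at 3 of its 4 probe sets, and 1 probe set each of Bcl2 and Bcl2l11 was higher. The other 6 measured genes, Mcl1, Bak1, Bid, Bad, Bbc3 and Pmaip1, had no called probe set. In all, 5 of 29 member probe sets were called (17.2%, against 10.4% of all probe sets). Of these, 2 were higher (6.9%, against 5.14%) and 3 lower (10.3%, against 5.26%), and the 3 lower ones all report Bcl2l1, so they are not independent. At an unadjusted limma p below 0.05 there were 8 (27.6%), against 30.7% of all probe sets. The crosses did not overlap at 9 of 29 member probe sets (31%), below the 36.1% seen over all probe sets. With the brightest probe set for each gene and adjustment over 18193 genes, 2 of 9 members were called (22.2%), against 17.2% of all genes. Brightest meant the highest mean over all 6 arrays. For Bcl2, 1 of the 2, that probe set was the brightest in AKR F1 but not in DBA F1. With so few genes, no surplus of changed genes in the family can be read from these shares. The median difference over the member probe sets was 0.10, against -0.02 over all probe sets. Without any 1 array the member count was 1 to 3. It was 2, 2 and 1 without AKR F1 replicates 1, 2 and 3, and 3, 2 and 1 without DBA F1 replicates 1, 2 and 3. Over all 45037 probe sets, 4688 were called with every array. In the same fits that count was 1001, 1513 and 1164 for AKR F1, and 4793, 1148 and 1253 for DBA F1. A smaller member count thus went with fewer calls over the array in all of these fits but the 1 without DBA F1 replicate 1.

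**Figure D1:**
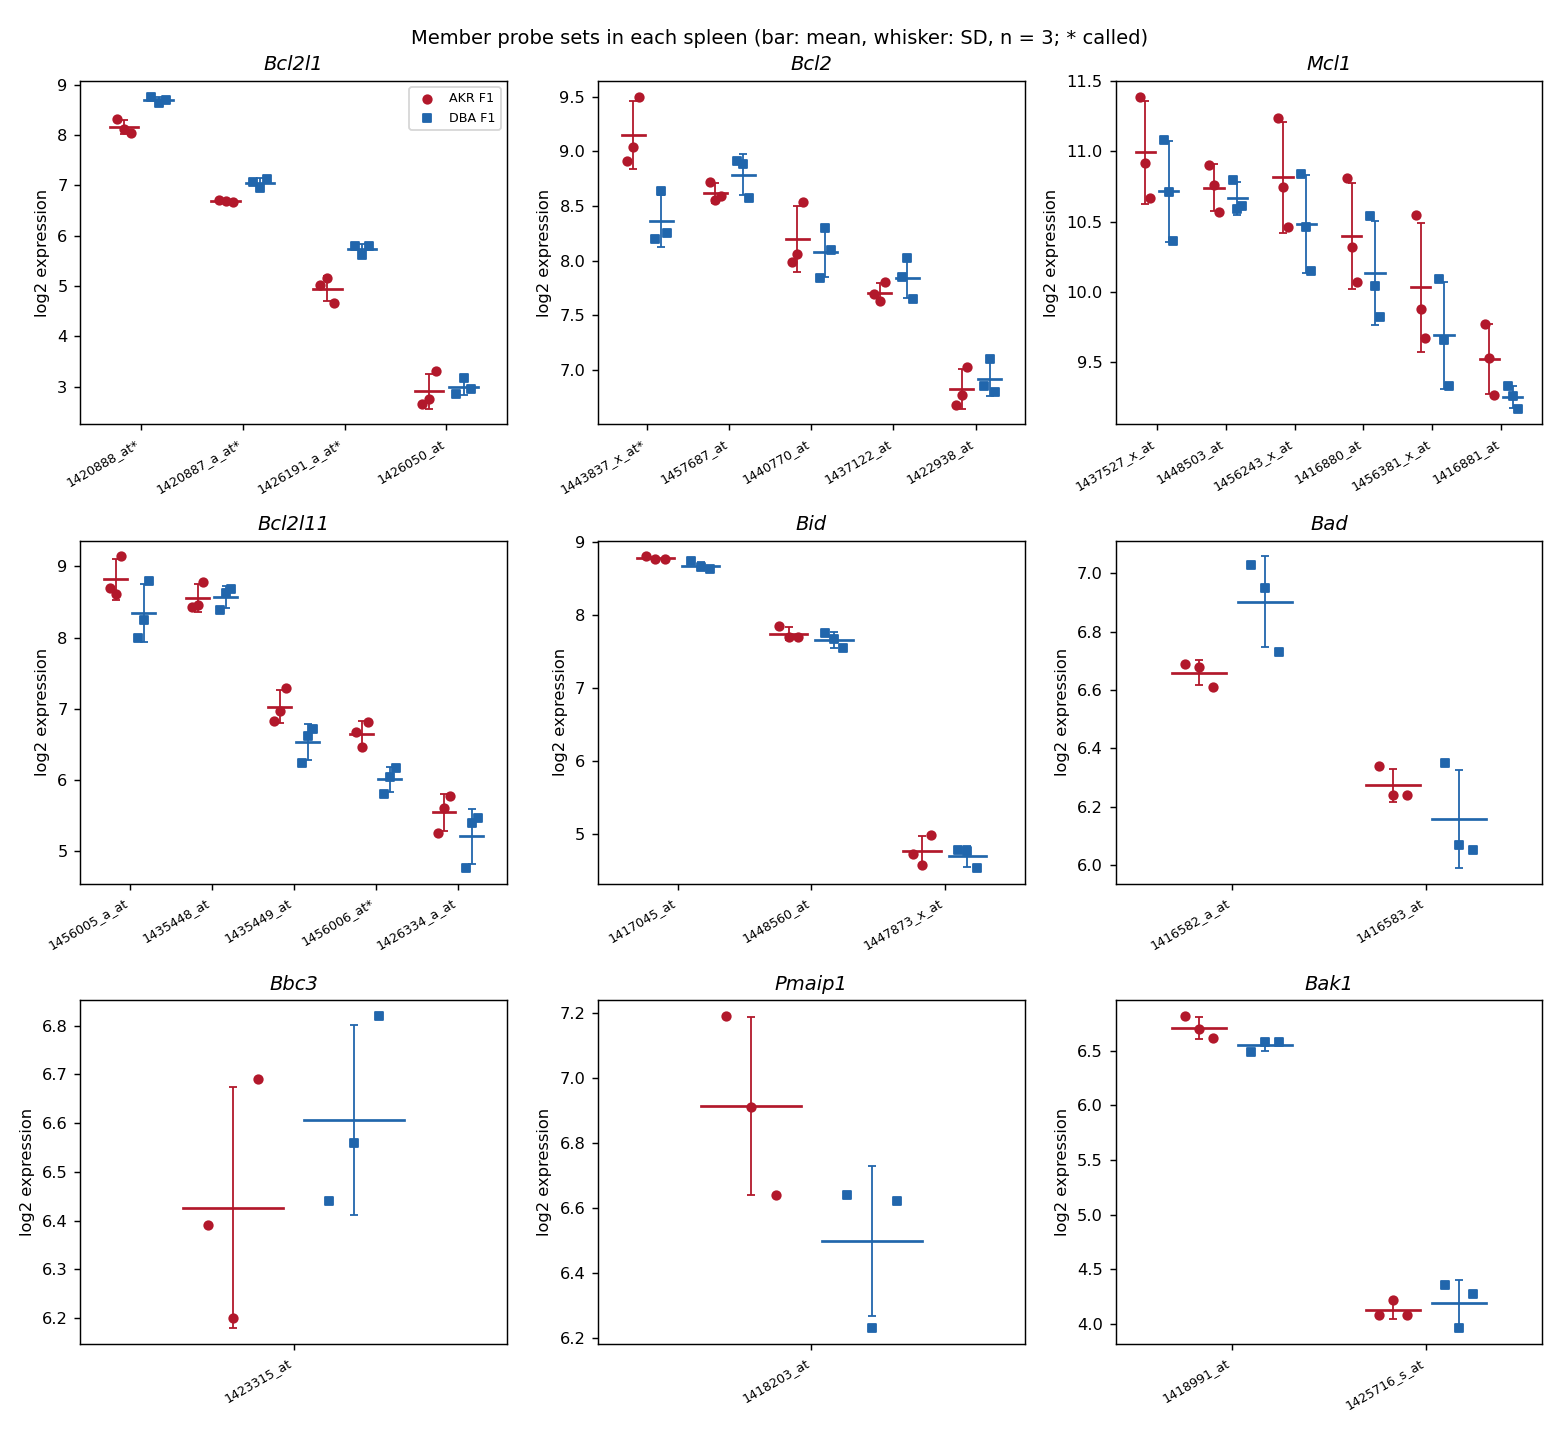
Log2 expression of every member probe set in each spleen, by gene, with AKR F1 as red circles left of DBA F1 as blue squares; the bar is the mean and the whisker the SD of 3 spleens, and an asterisk marks the 5 called probe sets. The 3 called Bcl2l1 probe sets have all AKR F1 values below all DBA F1 values, while the 6 Mcl1 probe sets overlap.

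Bcl2l1 and Bcl2 are the survival genes compared here, and their promoter windows are shown first so that the 2 loci can be seen. RefSeq lists 3 start sites for Bcl2l1 and 1 for Bcl2 on build GRCm38.p6. Each window runs from 250 bases before the start to 50 after it, 5′ to 3′ on the strand of the gene, and the Bcl2l1 window printed is the one of its 3 with a match. Capitals mark the letters AGATAA, 1 form of the core bound by GATA factors such as the erythroid regulator Gata1, searched on both strands. Other forms of the core were not searched or marked.
Bcl2l1, chr2:152828440-152828739, minus strand: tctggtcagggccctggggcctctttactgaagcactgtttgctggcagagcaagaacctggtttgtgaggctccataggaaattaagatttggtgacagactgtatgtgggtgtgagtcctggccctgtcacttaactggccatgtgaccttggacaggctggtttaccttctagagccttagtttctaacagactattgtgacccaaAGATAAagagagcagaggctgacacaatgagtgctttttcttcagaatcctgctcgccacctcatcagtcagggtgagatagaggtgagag
Bcl2, chr1:106714241-106714540, minus strand: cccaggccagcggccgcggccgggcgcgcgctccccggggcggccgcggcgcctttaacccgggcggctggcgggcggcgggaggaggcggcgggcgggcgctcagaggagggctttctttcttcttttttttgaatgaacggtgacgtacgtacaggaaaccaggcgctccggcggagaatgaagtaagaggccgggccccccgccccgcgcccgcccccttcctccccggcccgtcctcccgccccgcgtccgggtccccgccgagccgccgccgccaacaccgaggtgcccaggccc
The Bcl2l1 window holds 1 match and has 49.3% G and C, and the Bcl2 window holds 0 matches and has 76% G and C. Of 32851 windows of the same length, 11.2% held AGATAA. A second motif, TTCNNNGAA, recognised by STAT factors, was searched on both strands. It occurred in 0 of the 15 member windows and in 8.3% of all windows. The 15 windows cover 9 member genes, with Bax among them and Pmaip1 left out. AGATAA occurred in 1 of the 15. A match describes letters only.

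Among survival genes, Bcl2l1 showed the clearest difference. Its brightest probe set, 1420888_at, read 8.32, 8.12 and 8.03 in AKR F1, against 8.76, 8.64 and 8.70 in DBA F1. Every AKR F1 spleen lay below every DBA F1 spleen, and DBA F1 values were the tighter group. The means were 8.16 ± 0.15 in AKR F1, against 8.70 ± 0.06 in DBA F1 (SD, n = 3 each), a difference of -0.54 ± 0.10 (SE; limma adjusted p = 0.0177), or a level 0.686 times that of DBA F1. Probe set 1426191_a_at read 5.01, 5.16 and 4.67 in AKR F1, against 5.79, 5.61 and 5.80 in DBA F1, without overlap (-0.78 ± 0.13, limma adjusted p = 0.0148). Probe set 1420887_a_at read 6.71, 6.68 and 6.66 in AKR F1, against 7.06, 6.94 and 7.13 in DBA F1, again without overlap (-0.36 ± 0.08, limma adjusted p = 0.0341). The suffix a_at marks probes shared by alternative transcripts of a gene. The dim remaining probe set, 1426050_at, read 2.66, 2.76 and 3.30 in AKR F1, against 2.86, 3.18 and 2.95 in DBA F1, with a mean at percentile 15 of the array, and was not called (-0.09, 95% interval -0.48 to 0.29). Averaged over its 4 probe sets, Bcl2l1 differed by -0.45 ± 0.06 (limma adjusted p = 0.00822).

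Without any 1 array the 3 called Bcl2l1 probe sets kept a negative difference, but not every call. For 1420888_at the difference was -0.63 to -0.48, with the call kept without replicate 1 of either cross. Its limma adjusted p was 0.0568 and 0.0599 without AKR F1 replicates 2 and 3, and 0.0523 and 0.0561 without DBA F1 replicates 2 and 3. For 1426191_a_at the call was lost without DBA F1 replicate 3 (limma adjusted p = 0.0511) and held without each of the other 5 arrays, where the adjusted p rounded to 0.05 at most. For 1420887_a_at it was lost in each such fit (limma adjusted p = 0.0543 to 0.0981). With the mean of the exocrine pancreas genes as a covariate the differences were -0.54 for 1420888_at (limma adjusted p = 0.0694), -0.74 for 1426191_a_at (0.0648) and -0.31 for 1420887_a_at (0.120). Erythroid markers moved with Bcl2l1 between the crosses: 15 of 15 measured were lower in AKR F1, with a median difference of -1.69, against -0.01 over all genes. The smallest limma adjusted p were those of Trim10 (-2.37), the transcription factor Nfe2 (-1.54), the membrane skeleton gene Epb42 (-1.85) and Rhag of the Rh complex (-2.34), at 0.00159 to 0.00452. With the pancreas covariate 11 of the 15 erythroid genes were called. Within DBA F1 the Bcl2l1 probe sets differed in order: replicate 1, with the lowest erythroid mean (9.78), was highest at 1420888_at, whereas replicate 3, with the highest erythroid mean (10.53), was highest at 1420887_a_at and 1426191_a_at. Within AKR F1, replicate 3, with the lowest erythroid mean (8.05), was lowest at all 3 called probe sets. Replicate 2 of AKR F1, with the highest (8.70), was highest only at 1426191_a_at. What part the erythroid genes had in the Bcl2l1 difference was not tested.

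Bcl2 itself gave a divided picture. Its brightest probe set, 1443837_x_at, read 8.91, 9.04 and 9.50 in AKR F1, against 8.20, 8.64 and 8.25 in DBA F1. All AKR F1 spleens were above all DBA F1 spleens, with AKR F1 replicate 3 the highest. The means were 9.15 ± 0.31 in AKR F1, against 8.36 ± 0.24 in DBA F1 (SD, n = 3 each), a difference of 0.79 ± 0.17 (SE; limma adjusted p = 0.0313). The suffix x_at marks a probe set with probes that can also bind other transcripts. None of the other 4 Bcl2 probe sets was called. Probe set 1457687_at read 8.72, 8.55 and 8.59 in AKR F1, against 8.91, 8.88 and 8.57 in DBA F1 (-0.16, 95% interval -0.42 to 0.09). Probe set 1440770_at read 7.99, 8.06 and 8.54 in AKR F1, against 7.84, 8.30 and 8.10 in DBA F1 (0.12, 95% interval -0.26 to 0.50). In both the crosses overlapped. Probe sets 1437122_at and 1422938_at differed by -0.14 and -0.09, with overlap.

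The disagreement among Bcl2 probe sets was itself larger than the spread between spleens. Within each array, 1443837_x_at exceeded the mean of the other 4 by 1.14, 1.28 and 1.51 in AKR F1, and by 0.33, 0.57 and 0.47 in DBA F1. The crosses did not overlap (difference 0.86, two-sided exact permutation p = 0.1, the smallest that 3 against 3 arrays allow). Averaged over its 5 probe sets, Bcl2 differed by 0.10 ± 0.11 (limma adjusted p = 0.543). The called probe set kept its call without DBA F1 replicate 2 (limma adjusted p = 0.0457) and lost it without any other single array. Those adjusted p were 0.0559, 0.0654 and 0.0713 without AKR F1 replicates 1, 2 and 3, and 0.0594 and 0.0867 without DBA F1 replicates 1 and 3. With the pancreas covariate the difference was 0.71 (limma adjusted p = 0.107). Lymphocyte markers stood higher in AKR F1 beside it: 9 of 10 T cell genes were called (median difference 0.52), and the smallest adjusted p were those of the coreceptor genes Cd8a and Cd8b1, at a difference of 0.59 each. Of 8 B cell genes 2 were called (median 0.31), Cr2 at 0.45 and Cd79a at 0.36. The T cell count was 5 without any 1 AKR F1 array and 9, 6 and 5 without DBA F1 replicates 1, 2 and 3. The B cell count was 5 without DBA F1 replicate 1 and 0 without any other single array. With the pancreas covariate these counts were 3 and 0. Their part in the Bcl2 values was not tested.

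Mcl1, a short-lived survival protein needed by many blood cell types, was bright at all 6 of its probe sets and was called at none. The brightest, 1437527_x_at, read 11.39, 10.92 and 10.67 in AKR F1, against 11.08, 10.71 and 10.36 in DBA F1. The crosses overlapped, and spleens of 1 cross differed by more than the crosses did. The SD was 0.36 in AKR F1 and 0.36 in DBA F1 (n = 3 each), and the difference was 0.28 with a 95% interval of -0.22 to 0.78. Differences over the 6 probe sets ran from 0.08 to 0.34, all positive, and the smallest limma adjusted p was 0.193, at 1416881_at. With the replicate number as a block in the fit, the smallest was 0.0515, at 1456243_x_at, again without a call.

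**Figure D2:**
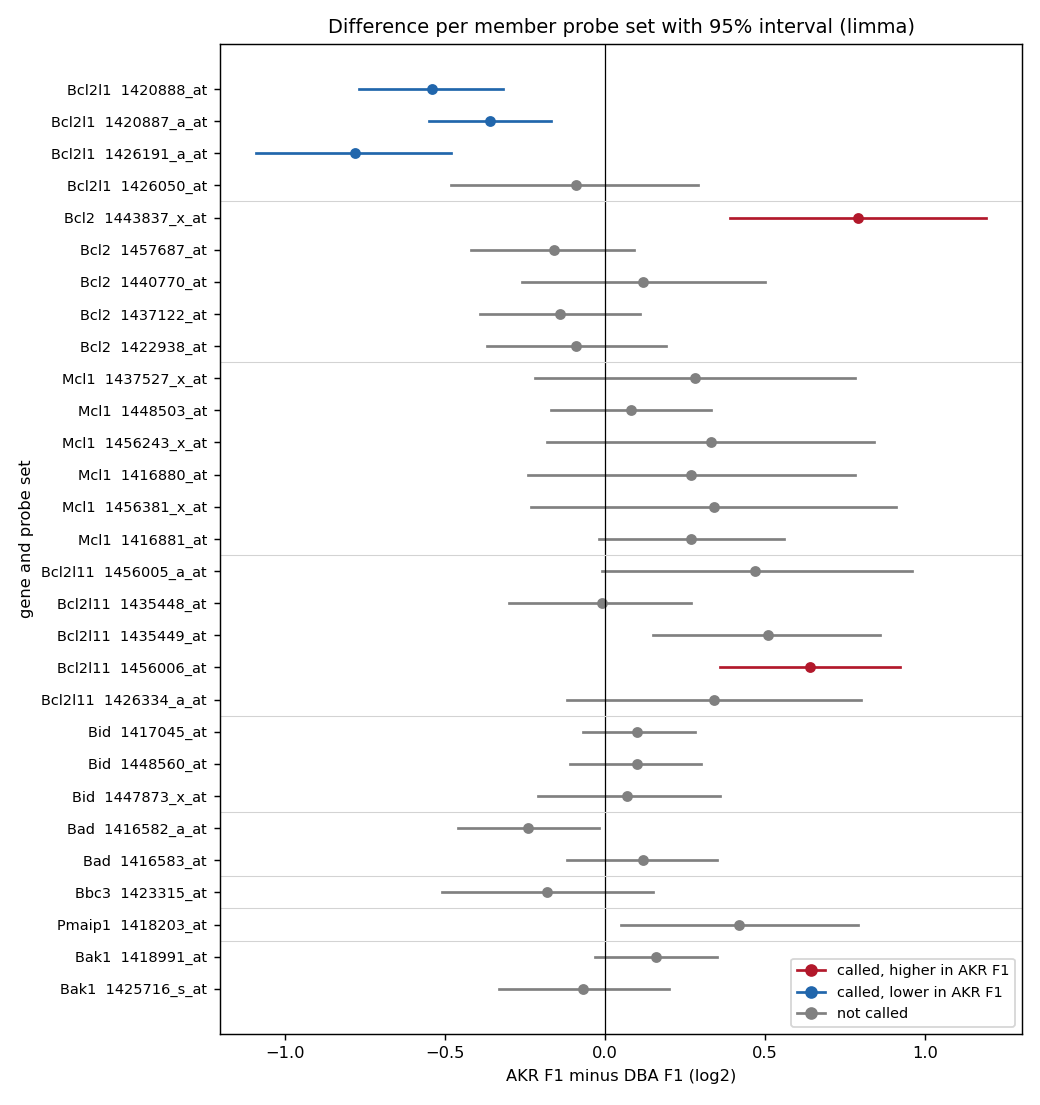
Difference in log2 expression, AKR F1 minus DBA F1, for each of the 29 member probe sets, with the 95% interval from limma; blue marks probe sets called lower in AKR F1, red those called higher and grey those not called. Bcl2l1 has 3 intervals below 0, and Bcl2 has 1 of 5 intervals above 0. Intervals also exclude 0 at Bcl2l11 1456006_at and 1435449_at, at Pmaip1 and at Bad 1416582_a_at, of which only 1456006_at was called. The intervals are not adjusted for the number of probe sets.

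Of the 5 BH3-only members, Bcl2l11 alone had a called probe set, 1 of 5. Bim, its product, removes surplus lymphocytes and other blood cells. Probe set 1456006_at read 6.67, 6.46 and 6.81 in AKR F1, against 5.81, 6.04 and 6.17 in DBA F1, without overlap (0.64 ± 0.12, limma adjusted p = 0.022). Probe set 1435449_at read 6.83, 6.97 and 7.29 in AKR F1, against 6.24, 6.62 and 6.72 in DBA F1, without overlap. It was not called (0.51 ± 0.16, 95% interval 0.15 to 0.86, limma adjusted p = 0.0714). The brightest Bcl2l11 probe set, 1456005_a_at, read 8.70, 8.61 and 9.14 in AKR F1, against 8.0, 8.25 and 8.79 in DBA F1, with overlap (0.47 ± 0.21, limma adjusted p = 0.174). The nearly as bright 1435448_at read 8.43, 8.45 and 8.78 in AKR F1, against 8.39, 8.62 and 8.68 in DBA F1 (-0.01, 95% interval -0.30 to 0.27). Leaving out 1435448_at, the Bcl2l11 differences were 0.34 to 0.64. The mean of the 5 Bcl2l11 probe sets differed by 0.39 ± 0.15 (limma adjusted p = 0.117). The call of 1456006_at was lost without replicate 1 (adjusted p = 0.0723) or 3 (0.0687) of AKR F1 or DBA F1 replicate 2 (0.0668), and held without any other single array and with the pancreas covariate (0.0483).

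Pmaip1, a p53 target whose product Noxa binds Mcl1, read 7.19, 6.91 and 6.64 in AKR F1, against 6.64, 6.23 and 6.62 in DBA F1 at its 1 probe set. The lowest AKR F1 value met the highest DBA F1 value, and the difference of 0.42 ± 0.16 was not called (limma adjusted p = 0.125). Its 95% interval, which is not adjusted for the number of probe sets, was 0.05 to 0.79. Bbc3, which encodes the other p53-dependent member Puma, read 6.39, 6.20 and 6.69 in AKR F1, against 6.44, 6.56 and 6.82 in DBA F1, with overlap (-0.18, 95% interval -0.51 to 0.15). Bid links death receptors to mitochondria once caspase-8 has cut it. Its brightest probe set, 1417045_at, read 8.80, 8.77 and 8.76 in AKR F1, against 8.73, 8.66 and 8.63 in DBA F1. These did not overlap, but the difference was 0.10 with a 95% interval of -0.07 to 0.28, and the other 2 probe sets differed by 0.10 and 0.07, so a change of more than 0.28 lies outside the interval at the brightest one. Bad, which growth factor signalling keeps inactive by phosphorylation, read 6.69, 6.68 and 6.61 in AKR F1, against 7.03, 6.95 and 6.73 in DBA F1 at 1416582_a_at. The crosses did not overlap there and the probe set was not called (-0.24 ± 0.10, 95% interval -0.46 to -0.02, limma adjusted p = 0.135). Probe set 1416583_at differed the other way (0.12, adjusted p = 0.46).

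Of the pore-forming effectors, Bak1 was measured and Bax was not. Its brighter probe set, 1418991_at, read 6.82, 6.70 and 6.62 in AKR F1, against 6.49, 6.58 and 6.58 in DBA F1, without overlap (0.16, 95% interval -0.03 to 0.35). The dimmer 1425716_s_at differed by -0.07, with overlap. Neither was called (limma adjusted p = 0.237 and 0.727).

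Setting Bcl2l1 against other members within the same array removes any shift common to an array, and asks whether survival and death genes kept step. At the brightest probe sets, Bcl2l1 minus Bcl2 was -0.59, -0.92 and -1.47 in AKR F1, against 0.56, -0.01 and 0.45 in DBA F1. The crosses were separate, with means of -1.0 ± 0.45 in AKR F1, against 0.34 ± 0.30 in DBA F1 (SD, n = 3 each) and a difference of -1.33 (two-sided exact permutation p = 0.1, the smallest possible here). The gap was smaller with the other Bcl2 probe sets: against 1457687_at, 1440770_at, 1437122_at and 1422938_at the difference was -0.38, -0.67, -0.41 and -0.46, with overlap at the last 2. With the mean of each gene's probe sets it was -0.55. The brightest probe set of a gene was chosen by its mean over all 6 arrays. For Bcl2, 1443837_x_at was brighter than 1457687_at in AKR F1 (9.15, against 8.62) but not in DBA F1 (8.36, against 8.78). Its choice, and so the -1.33, rests on the cross in which it was high. Of 20 pairs of a Bcl2l1 and a Bcl2 probe set, 18 had a negative difference and 11 did not overlap between the crosses. The pairs reuse 4 Bcl2l1 and 5 Bcl2 probe sets, so they are not independent. Over the array, 36.1% of single probe sets did not overlap. The share among pairs of other genes was not tested, so 11 of 20 cannot be called unusual. All 15 pairs with a called Bcl2l1 probe set were negative, as the fall of those probe sets would give by itself.

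Against the pro-death genes, Bcl2l1 at its brightest probe set stood lower in every AKR F1 spleen than in any DBA F1 spleen. Bcl2l1 minus the mean of Bcl2l11, Bak1, Bid, Bad, Bbc3 and Pmaip1 was 0.89, 0.81 and 0.62 in AKR F1, against 1.54, 1.43 and 1.34 in DBA F1. The difference was -0.67 (two-sided exact permutation p = 0.1, the smallest possible here) and -0.56 with the mean of each gene's probe sets. It was -0.48 and -0.91 with 1420887_a_at and 1426191_a_at, without overlap, and -0.22 with the dim 1426050_at, where the crosses overlapped (exact permutation p = 0.4). One gene at a time, over 8 genes, the difference was -1.33 for Bcl2, -1.02 for Bcl2l11, -0.96 for Pmaip1, -0.82 for Mcl1, -0.70 for Bak1, -0.65 for Bid, -0.36 for Bbc3 and -0.30 for Bad. The crosses overlapped for Bbc3 (exact permutation p = 0.3, also 0.3 adjusted over the 8) and not for the other 7 (exact permutation p = 0.1 each, adjusted 0.114). None can pass 0.05 at this number of arrays. The Bcl2l11 probe set used, 1456005_a_at, was brighter than 1435448_at in AKR F1 (8.82, against 8.55) but not in DBA F1 (8.35, against 8.56). Its choice rests on AKR F1, it is also part of the pro-death mean, and 1435448_at itself differed by -0.01. All 8 differences, and the -0.67 with the pro-death mean, contain 1420888_at, which differed by -0.54 without overlap by itself. They are not independent, and the fall of Bcl2l1 alone would lower each of them. How often other genes would separate in this way was not tested.

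**Figure D3:**
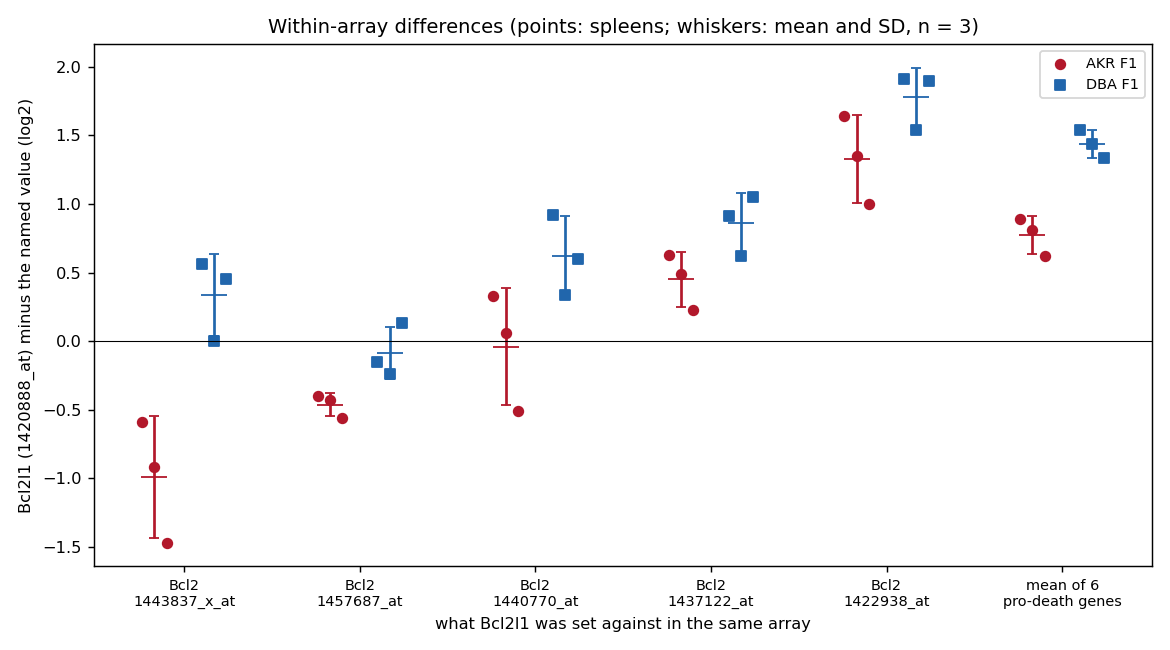
Bcl2l1 at 1420888_at minus the named probe set, or minus the mean of 6 pro-death genes, in the same array (log2), with AKR F1 in red left of DBA F1 in blue; points are spleens and whiskers the mean and SD of 3. The height of a column depends on the probes and only the gap between the crosses can be read: it is -1.33 against 1443837_x_at, -0.38 to -0.67 against the other 4 Bcl2 probe sets and -0.67 against the pro-death mean.

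The rest of the pathway was taken from lists of genes, using the brightest probe set of each. Of 8 genes on the route by which erythropoietin raises Bcl2l1, 4 were lower in AKR F1, 0 were higher and 4 were not called (median -0.20). The receptor Epor read 7.23, 7.53 and 7.01 in AKR F1, against 8.12, 8.69 and 8.81 in DBA F1 (-1.28 ± 0.19, limma adjusted p = 0.0106). Gata1, the erythroid transcription factor, differed by -1.50 ± 0.25 (adjusted p = 0.0148). The STAT5 targets Pim1, a survival kinase, and Cish, a feedback inhibitor, differed by -0.54 (adjusted p = 0.0349) and -0.41 (adjusted p = 0.0408). The kinase gene Jak2 had a difference of 0.01, and Stat5a and Stat5b of 0.06 and 0.30, without a call. Gata1 also stands among the erythroid markers. The count of 4 was 1, 2 and 1 without AKR F1 replicates 1, 2 and 3 and 4, 1 and 2 without DBA F1 replicates 1, 2 and 3. With the pancreas covariate it was 1.

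Among 11 other measured genes of the BCL2 family, 1 was called. Hrk, a BH3-only gene best known from neurons, read 4.92, 5.0 and 4.98 in AKR F1, against 5.28, 5.39 and 5.49 in DBA F1 (-0.42 ± 0.08, limma adjusted p = 0.0238), and its other probe set differed by -0.32 (adjusted p = 0.0661). Hrk stayed called without DBA F1 replicate 1 (adjusted p = 0.0187) and not when another single array was left out (0.0613 to 0.0796). With the pancreas covariate 0 of these 11 genes were called. The survival gene Bcl2l2 and the BH3-only gene Bmf differed by 0.27 and 0.31, and Bcl2l13 and Bcl2l15 by -0.32 and -0.27, none called. The remaining 6 (Bik, Bcl2l14, Bcl2l10, Bnip3, Bcl2l12 and Bok) had differences of -0.17 to 0.08. Neither the 12 measured genes of the caspase cascade after mitochondria nor the 8 of the death receptor route had a call in limma, with medians of 0.09 and 0.26; the death receptor count was not stable across settings. It was 2 after median centring, without dim probe sets and with the trended and robust prior (all higher), 2 with the mean of probe sets (1 higher, 1 lower) and 3 with array weights (2 higher, 1 lower). At an unadjusted p below 0.05 there were 1 and 5. The closest were Xiap, the caspase inhibitor (0.26, adjusted p = 0.081), and Tradd, an adaptor of the tumour necrosis factor receptor (0.32, adjusted p = 0.053).

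Of 9 genes of the p53 pathway, 3 were higher in AKR F1, 0 were lower and 6 were not called (median 0.15). They were Zmat3, an RNA-binding p53 target (0.51 ± 0.09, limma adjusted p = 0.0154), the stress gene Trp53inp1 (0.62 ± 0.11, adjusted p = 0.0182) and Perp, a membrane protein gene (0.63 ± 0.12, adjusted p = 0.023). Perp was dim, at 4.46 in AKR F1, against 3.84 in DBA F1. The classical targets Cdkn1a and Mdm2 had differences of 0.04 and -0.29 without a call, beside Pmaip1 at 0.42 and Bbc3 at -0.18. The count of 3 was 0, 1 and 1 without AKR F1 replicates 1, 2 and 3 and 3, 1 and 0 without DBA F1 replicates 1, 2 and 3. With the pancreas covariate it was 0.

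**Figure D4:**
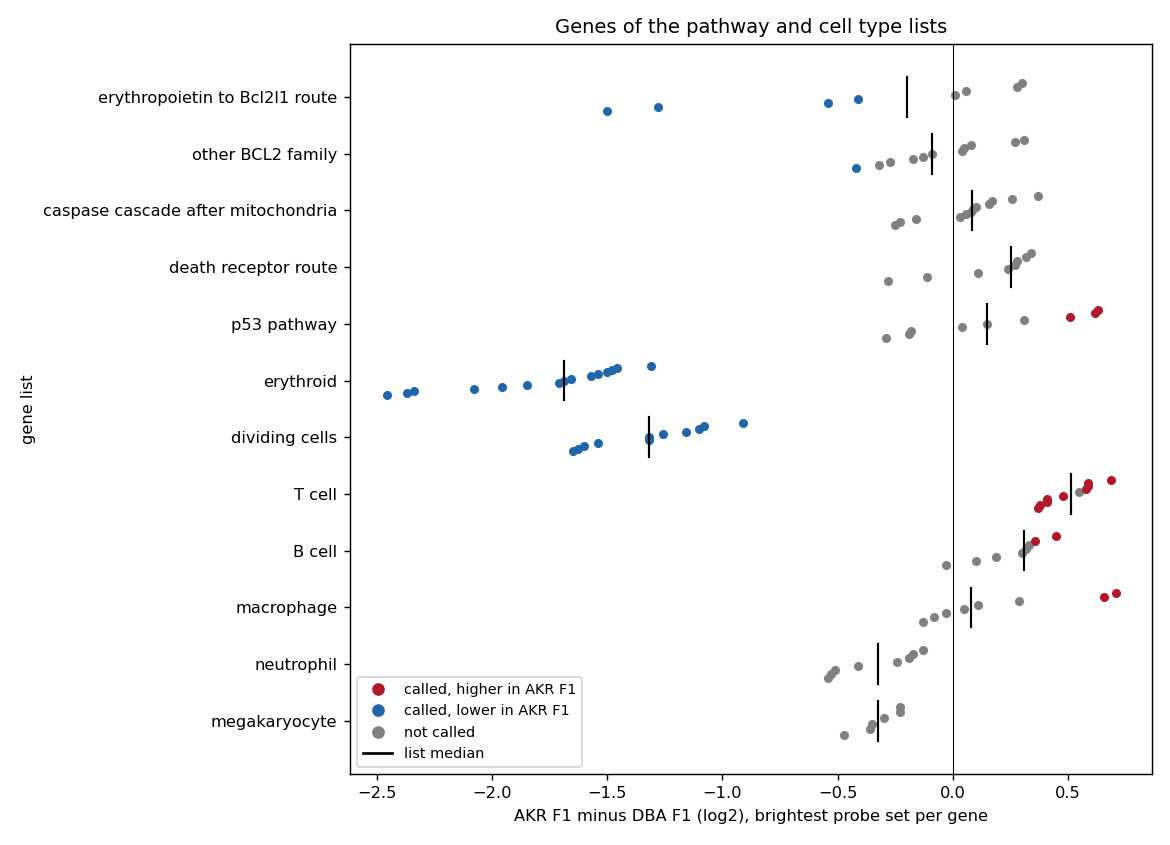
Difference in log2 expression, AKR F1 minus DBA F1, for each gene of 5 pathway lists and 7 cell type lists at its brightest probe set; red and blue mark genes called higher and lower in AKR F1, grey those not called, and the black line the list median. Erythroid genes lie around -1.69 and dividing cell genes around -1.32, while the caspase and death receptor lists hold 0 called genes in the fit drawn here. The death receptor count changed with other settings of the fit.

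Other cell types in the spleen gave context for these values. All 11 measured genes of dividing cells were lower in AKR F1 (median -1.32), among them Ccnb2, a mitotic cyclin (-1.65, limma adjusted p = 0.00922). Without any 1 array 2 to 11 of them were called. With the pancreas covariate 2 of the dividing cell genes and 2 of the macrophage genes were called. Macrophage genes had 2 of 8 called, Cd5l at 0.71 and the scavenger receptor gene Marco at 0.66, both higher in AKR F1, and neutrophil and megakaryocyte genes had 0 of 8 and 0 of 6 (medians -0.33 and -0.32), with 0 and 3 at an unadjusted limma p below 0.05. Over the 6 arrays, the genes whose centred values lay closest to Bcl2l1 1420888_at among 9188 genes with a mean of at least 6 were Cmas, which activates sialic acid, Cpxm1, Zcchc9, Klhl25 and Slc25a51. Their root mean square distances were 0.0174 to 0.0708 on the log2 scale. Closest to Bcl2 1443837_x_at were Ghr, the growth hormone receptor, Aldh7a1, Aqp12, Zzef1 and Sema5a, at larger distances of 0.127 to 0.150. These distances describe 6 arrays in 2 groups and carry no test.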

How the data were processed

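RNA of 6 whole spleens was extracted with Trizol, labelled by the Affymetrix procedure and hybridised, per the labels' protocols. The authors deposited 1 log2 value per probe set and array, and the submitters' processing notes list RMA and MAS5 without roles or versions. Array medians were close, at 5.04 to 5.10. The SD over probe sets was 2.34, 2.33 and 2.32 in the AKR F1 arrays, against 2.26, 2.27 and 2.28 in DBA F1, so the spread differed by cross. Sequence differences between the parental strains at the probes can also alter a signal, which was not tested. Of 45101 probe sets, 64 controls were left out. Platform annotation gave 1 symbol to 34945 of the remaining 45037, several to 932 and none listed here to 9160. Of those with 1 symbol, 34741 matched a RefSeq gene by identifier, with 0 changed symbols. No genome build is named for the files.

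The deposited log2 values were fitted with limma 3.58.1 in R 4.3.3 (lmFit, eBayes, no covariate), and the procedure was tested on simulated data. The robust fit used statmod 1.5.0. Within-array differences were tested with exact permutation of arrays. Promoter windows came from RefSeq, GRCm38.p6. Genes were named by rule: all member probe sets, the other family members, up to 4 called genes per list (otherwise the one with the smallest p), and the 5 genes nearest to Bcl2l1 and to Bcl2. Further list genes were named as examples after their values were seen. Members and lists were chosen with earlier results of these data known. No array was a copy of another, since pairs shared 121 to 181 exact values. Alternatives were median centring, quantiles made equal between arrays, removal of the dimmest 40% of probe sets, a prior with trend and robust estimation, weighted arrays, a replicate block, omission of single arrays, the pancreas mean as a covariate, other probe sets and the mean of probe sets.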

Additional observations from a re-analysis of the deposited data

How the results depend on the processing

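The same 5 member probe sets were called with median centring, quantile normalization, dim probe sets left out, a trended and robust prior, and array weights. Leaving out any 1 array gave 1 to 3 called member probe sets against 5, 1001 to 4793 of all probe sets against 4688, and 23 to 50 list genes against 46. Those fits rest on 5 arrays. With the pancreas covariate the counts were 1, 851 and 19, and the cause was not tested. With 1 probe set per gene 2 members were called, out of 9 tested. Bcl2l1 minus Bcl2 ranged from -1.54 to -1.09 and Bcl2l1 minus the pro-death mean from -0.73 to -0.59 without 1 array. With the dim Bcl2l1 probe set 1426050_at in place of the brightest they were -0.88 and -0.22, and the crosses overlapped in the second. The comparison with the other Bcl2 probe sets was added after the data were seen. Of all called probe sets 49.4% were higher in AKR F1 as deposited, 61.9% after median centring and 45% after quantile normalization.

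Deviations from the cross means correlated by 0.201, 0.108 and 0.0451 for same-numbered arrays across probe sets. For differently numbered arrays they correlated by -0.16 to 0.0563. Whether the replicate numbers pair the spleens cannot be told from these values. With the number as a replicate block, 4658 probe sets and 7 member probe sets were called, the 2 added being Bcl2l11 1456005_a_at (adjusted p = 0.0383) and 1435449_at (0.025), with 45 list genes. The paired exact test gave p = 0.25, its smallest possible, for both within-array differences (-1.33 and -0.67). The number of arrays limits what can be detected for dim probe sets.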
